A study of Mus musculus with 7 samples.

Results

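The Il2 and Il21 locus is a stretch of mouse chromosome 3 that holds the genes of 2 T cell cytokines. It was taken as positions 36980000 to 37160000 of the mm9 build, chosen by position and not by any measured value. It spans 900 of the 13194707 windows of 200 bp in the genome, or 180 bins of 1 kb. Il2 was placed at 37.019 to 37.025 Mb and Il21 at 37.122 to 37.132 Mb, positions rounded to the kb. Both genes are on the minus strand, so each starts at its higher coordinate, and the 107 kb between the starts lie upstream of Il2 and downstream of Il21. Adad1 is the nearest protein-coding gene on the Il2 side in the RefSeq gene order, and Cetn4 and Bbs12 follow Il21. The lncRNA genes Gm36000 and Gm12532 lie between the cytokine genes in that order, which comes from another build (GRCm38.p6) and was used for names only.

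IL-2 is the growth factor that activated CD4+ T cells release on antigen contact, and NFAT, AP-1 and NF-kappaB act together on its promoter. IL-21 is a related cytokine, best known as a product of follicular helper and Th17 cells and as a signal to B cells. The IL-2 and IL-21 receptors share the common gamma chain. BRG1 is the ATPase of SWI/SNF complexes, which use ATP to move or evict nucleosomes at promoters and enhancers.

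BRG1 occupancy was measured by ChIP-seq with the J1 antibody in CD4+ T cells of Balb/C mice, 1 library per group. Naive CD4+CD62L+ cells, 95% pure, came from spleens and lymph nodes of animals aged 4 to 6 weeks. Th1 cells were made from naive cells on plates coated with anti-CD3 (1 μg/ml) and anti-CD28 (2 μg/ml), with IL-12 (1 ng/ml) and anti-IL-4. Th2 cells were made on the same coating with IL-4 (10 ng/ml) and anti-IFNγ. Both cultures received IL-2 at 100 U/ml. Th17 cells were made with soluble anti-CD3 (4 μg/ml) and anti-CD28 (1 μg/ml), IL-6 (100 ng/ml), IL-1β (10 ng/ml), TGF-β (1 ng/ml) and antibodies to IL-4 and IFNγ, then IL-23 (10 ng/ml). No IL-2 is named in the Th17 recipe, so Th17 differs from Th1 and Th2 in added IL-2 and in the form of anti-CD3 as well as in the polarising cytokines. Each neutralising antibody was used at 10 μg/ml. The stimulated Th1, Th2 and Th17 cells received PMA (50 ng/ml) and ionomycin (500 ng/ml) for 1.5 h, and resting Th1 and Th2 cells did not. The input is sheared DNA of pooled CD4+ T cells without precipitation. No expression data were used, so neither the cell identities nor the cytokine RNAs were checked.

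The promoters are shown because the results turn on the reads around the 2 gene starts. Each line gives the 250 bases before the RefSeq start, 5′ to 3′ on the gene's strand, with GRCm38.p6 coordinates. Capitals mark exact matches, on either strand, to the NFAT core GGAAA, the MAF half-site TGCTGA and the TATA box TATAAA.
Il2 (chr3:37125955-37126204, minus strand): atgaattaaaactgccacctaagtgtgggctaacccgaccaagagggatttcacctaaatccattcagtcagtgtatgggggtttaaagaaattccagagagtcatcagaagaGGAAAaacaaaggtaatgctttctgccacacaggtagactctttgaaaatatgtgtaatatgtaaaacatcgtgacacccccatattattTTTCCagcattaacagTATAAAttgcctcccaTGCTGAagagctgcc
Il21 (chr3:37232637-37232886, minus strand): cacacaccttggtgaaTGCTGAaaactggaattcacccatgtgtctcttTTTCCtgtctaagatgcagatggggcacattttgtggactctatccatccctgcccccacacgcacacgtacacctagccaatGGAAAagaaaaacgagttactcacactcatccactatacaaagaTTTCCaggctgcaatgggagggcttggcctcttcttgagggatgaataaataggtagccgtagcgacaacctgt
The Il2 window held 2 NFAT cores, 1 TATA box that begins 31 bases before the start and 1 MAF half-site. The Il21 window held 3 NFAT cores, 1 MAF half-site, 2 E-boxes (CANNTG, not capitalised) and no TATAAA. Among the 32851 promoters of the table, cut to the same length, 55.6% held GGAAA, 16.1% TGCTGA, 12.4% TATAAA and 66.2% CANNTG. Neither window held the AP-1 motif TGANTCA, the kappaB motif GGGNNTTTC, or the GATA motifs TGATAA and AGATAA, which 6.75%, 3.72%, 7.94% and 9.99% of promoters held. TGATAA and AGATAA both contain GATAA, and no match in either window overlapped another. Such matches describe letters only.

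Reads were counted once per start and strand, which left between 1340208 (resting Th2) and 7892944 (stimulated Th17) distinct reads per BRG1 library and 3531867 in input. Repeated reads made up 28.5 to 41.4% of the naive and resting libraries and 10.2 to 11.8% of the stimulated ones, so depth and repeats move with stimulation, and their part in the results was not tested. Levels are given in RPM, reads per 1000000 distinct reads of the library. With 1 library per group no difference has a replicate check and no p-value is given. The 95% intervals are exact and cover counting error only. A ratio was called where it was at least 3-fold, its interval left out 1 and the pair held at least 10 reads.

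Across the whole locus, BRG1 reads were near the input level in naive cells and highest in stimulated Th17 cells. The locus held 210 reads in naive cells, 234 in Th1 and 253 in Th2 cells at rest, 893 in Th1, 967 in Th2 and 2503 in Th17 cells after stimulation, and 398 in the input. Those reads made 101 RPM in naive cells, 129 in Th1 and 189 in Th2 cells at rest, 228 in Th1, 227 in Th2 and 317 in Th17 cells after stimulation, and 113 in the input. Relative to input, naive stood at 0.90 (0.76 to 1.07) and resting Th1 at 1.15 (0.97 to 1.35). On the RPM scale both intervals include 1, but another scale, given at the end, moves that of resting Th1 above 1. Resting Th2 stood at 1.68 (1.43 to 1.97), stimulated Th1 at 2.02 (1.80 to 2.28), stimulated Th2 at 2.01 (1.79 to 2.27) and stimulated Th17 at 2.81 (2.53 to 3.14). In the order of levels of the 6 BRG1 libraries, stimulated Th1 and stimulated Th2 were the only neighbours whose interval included 1, at a ratio of 1.01 (0.92 to 1.10). Among 13705 stretches of 180 kb with at least 100 input reads, the ratio of the locus to input was at percentile 34.1 in naive cells and, at rest, 80.5 in Th1 and 94.4 in Th2. After stimulation it was at percentile 96.0 in Th1, 96.6 in Th2 and 99.2 in Th17.

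The scale decides some of these directions. Over all 1 kb bins tested genome-wide, the median ratio was 1.38 for resting Th1 over naive, 1.55 for resting Th2 over naive, 1.62 for stimulated over resting Th1, 1.31 for stimulated over resting Th2, 1.24 for stimulated Th17 over stimulated Th1 and 1.26 for Th17 over Th2. On the log2 scale these shifts were 0.46, 0.63, 0.69, 0.39, 0.31 and 0.33. Over 10 kb tiles, which also take in poorly bound DNA, the same 6 medians lay between 0.865 and 1.02. Divided by the bin medians, the whole-locus ratio went from 1.28 to 0.929 for resting Th1 over naive and from 1.20 to 0.917 for stimulated over resting Th2, which turns both directions. The ratio of stimulated to resting Th1 went from 1.76 to 1.09, and that of stimulated Th17 to stimulated Th1 from 1.39 to 1.12. These bins are narrower than the locus and were kept only with at least 10 reads in the pair. Over the stretches of 180 kb, the median ratio to input was 0.994 in naive cells, and 0.912 in Th1 and 0.804 in Th2 at rest. After stimulation it was 0.606 in Th1, 0.638 in Th2 and 0.607 in Th17. Division by medians of that width would turn neither of the 2 directions. Whole-locus differences therefore describe the libraries on the RPM scale, and comparisons of one stretch of the locus with another within each library, where the total cancels, are given where they can be.

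**Figure D1:**
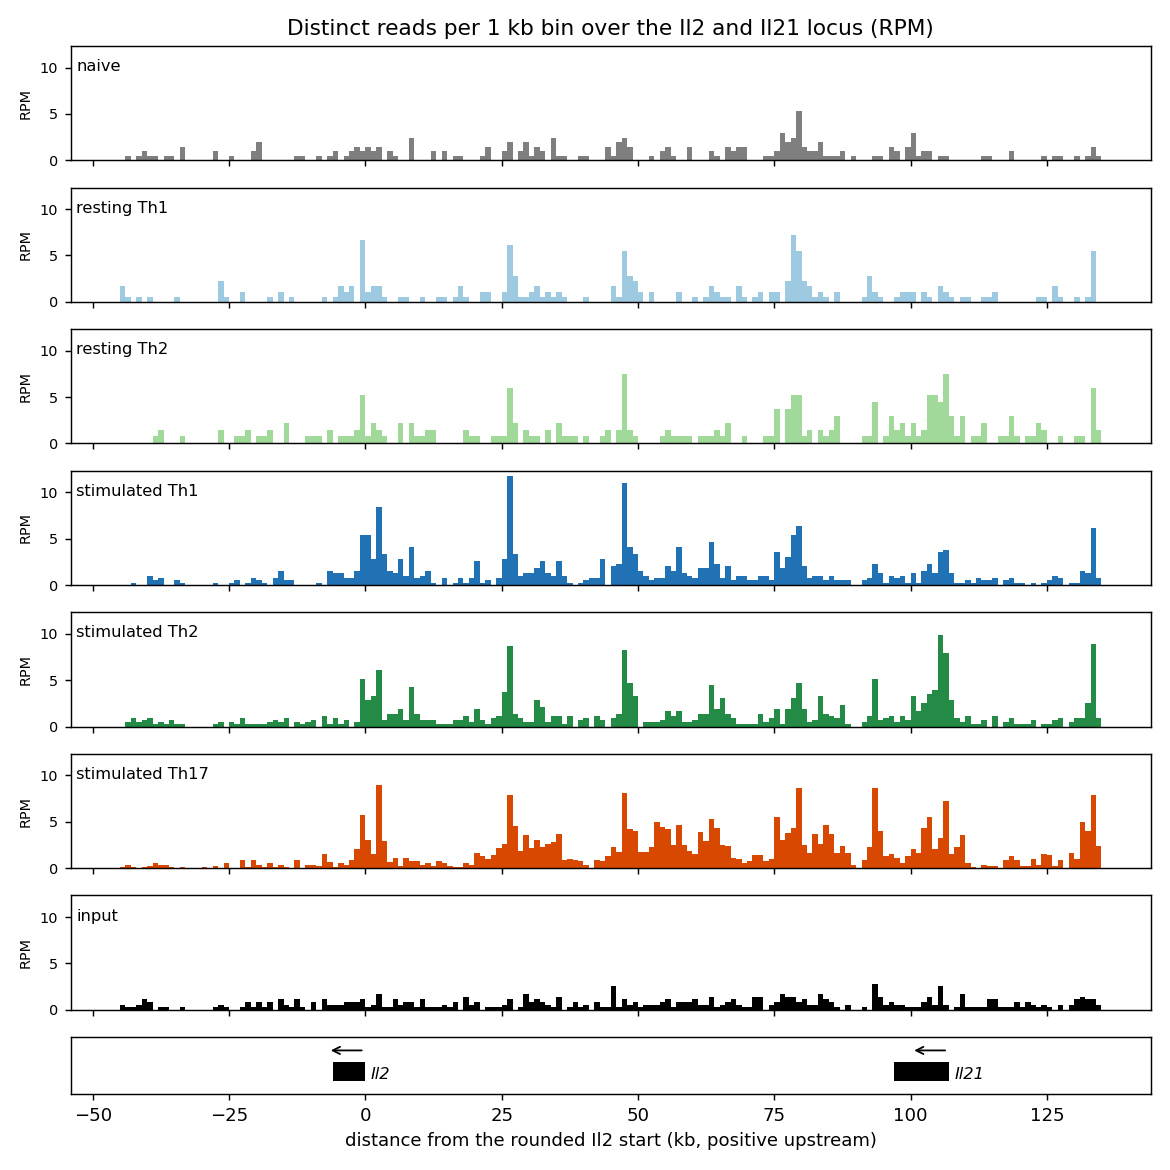
Distinct reads per 1 kb bin in RPM (vertical axes, same scale) against distance from the rounded Il2 start in kb (positive upstream), 1 panel per library, with the gene bodies and their direction below. Bins near Il2, at 26.5 and 47.5 kb, near 79.5 kb and at 133.5 kb stand up in several BRG1 libraries, the bins at Il21 stand up in resting Th2 and the stimulated libraries, and the input is flat by comparison.

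BRG1 reads were not spread evenly. The 39 kb below Il2, on the side of Adad1, were at the input level in every library. They held 24 reads in naive cells, 19 in Th1 and 22 in Th2 cells at rest, 44 in Th1, 63 in Th2 and 87 in Th17 cells after stimulation, and 53 in the input. Their ratio to input lay between 0.70 and 1.09, and each of the 6 intervals included 1. None of the 8 pairs of libraries compared differed there beyond counting error. The higher levels of the stimulated libraries thus lay from Il2 upwards, in the plot of density by segment.

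**Figure D2:**
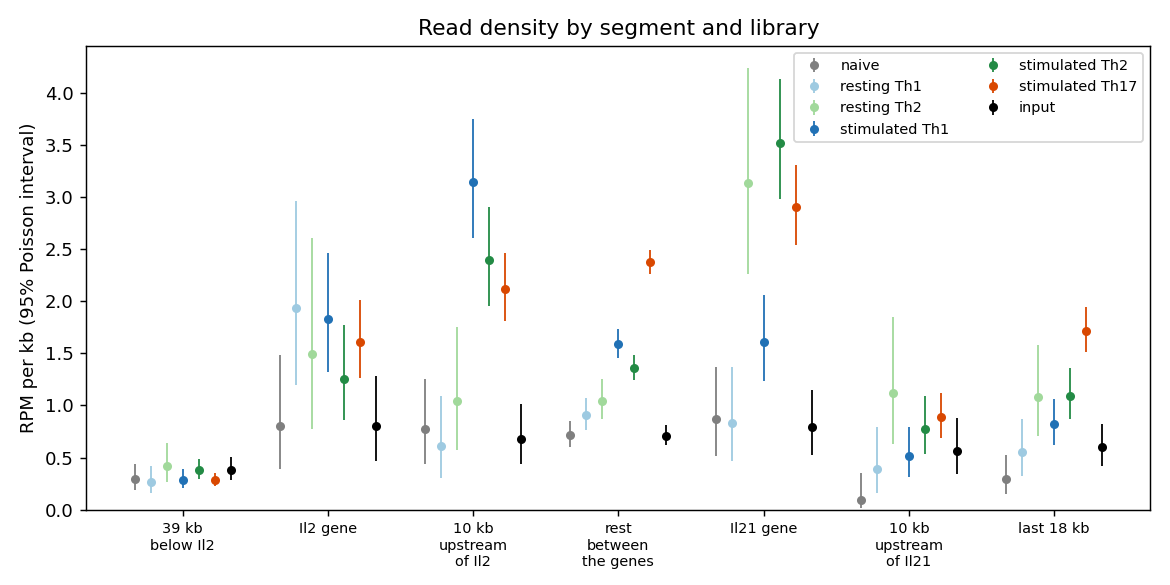
Read density in RPM per kb (vertical axis) in the 7 consecutive stretches of the locus, 1 point per library with its 95% Poisson interval. The stretch below Il2 stays under 0.5 RPM per kb in all 7 libraries, the 3 stimulated libraries lie above 2 upstream of Il2, and resting Th2 lies with stimulated Th2 and Th17 over Il21.

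Around the start of Il2, reads were present in every differentiated library. The 2 kb centred on the start held 5 reads in naive cells, 14 in Th1 and 8 in Th2 cells at rest, 42 in Th1, 34 in Th2 and 69 in Th17 cells after stimulation, and 5 in the input. As levels these were 2.41 RPM in naive cells, 7.74 in Th1 and 5.97 in Th2 cells at rest, 10.7 in Th1, 7.98 in Th2 and 8.74 in Th17 cells after stimulation, and 1.42 in the input. All 5 differentiated libraries lay above naive and input. No 2 neighbours in the order of levels differed beyond counting error. Resting Th1 passed the call over naive at 3.21 (1.09 to 11.4), while the ratio for resting Th2 was 2.47 (0.71 to 9.61). The Th1 ratio fell under 3-fold after division by the bin median (2.33) and at equal depth (2.5), which ends the call. Stimulated over resting gave 1.39 (0.74 to 2.75) in Th1 and 1.34 (0.61 to 3.34) in Th2, and neither passed. Over the 6 kb gene body the counts were 10 in naive cells, 21 in Th1 and 12 in Th2 cells at rest, 43 in Th1, 32 in Th2 and 76 in Th17 cells after stimulation, and 17 in the input, and stimulated Th1 was no higher than resting Th1 at 0.95 (0.55 to 1.68).

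In the 10 kb upstream of Il2 the stimulated libraries stood apart from the others. The stretch held 16 reads in naive cells, 11 in Th1 and 14 in Th2 cells at rest, 123 in Th1, 102 in Th2 and 167 in Th17 cells after stimulation, and 24 in the input. Their levels were 7.72 RPM in naive cells, 6.08 in Th1 and 10.5 in Th2 cells at rest, 31.4 in Th1, 23.9 in Th2 and 21.2 in Th17 cells after stimulation, and 6.80 in the input. The 3 stimulated libraries lay above all others, and the 3 unstimulated libraries could not be told from input. Stimulated Th1 was called higher than resting Th1 at 5.16 (2.79 to 10.6), and the ratio remained 3.20 after division by the bin median. In Th2 the ratio was 2.29 (1.31 to 4.34), under the 3-fold rule, and 1.75 after that division. Stimulated Th17 stood below stimulated Th1 at 0.67 (0.53 to 0.86). After a random thinning of each library to the same depth, the ratio was 1.0 on fewer reads. Such thinning leaves the expected ratio as it is and widens its counting error.

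The called site in that stretch lay 2.5 kb upstream of Il2 and was called in stimulated Th17 only. Neither stimulated Th1 nor stimulated Th2 passed there at equal depth. The window at 37027401 to 37027600 held 1 read in naive cells, 2 in Th1 and 0 in Th2 cells at rest, 21 in Th1, 17 in Th2 and 50 in Th17 cells after stimulation, and 4 in the input. Stimulated Th1 was higher than resting Th1 at 4.85 (1.19 to 42.6). For Th2, 17 reads against 0 gave at least 1.78-fold against a floor of 3 counts per library, with 1.30 as the lower end of the exact interval. The 1 kb bin around it, 37027001 to 37028000, held 3 reads in naive cells, 3 in Th1 and 2 in Th2 cells at rest, 33 in Th1, 26 in Th2 and 71 in Th17 cells after stimulation, and 6 in the input. Stimulated over resting was 5.08 (1.59 to 25.9) in Th1 and 4.09 (1.02 to 35.5) in Th2 in that bin. At equal depth none of these 4 calls remained, and division by the median ratio of sites ended that of the Th1 site, at 3.23 with an interval that then included 1.

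At Il21, resting Th2 cells stood with the stimulated Th2 and Th17 cells, and resting Th1 cells stood with naive cells. The 10 kb gene body held 18 reads in naive cells, 15 in Th1 and 42 in Th2 cells at rest, 63 in Th1, 150 in Th2 and 229 in Th17 cells after stimulation, and 28 in the input. Its levels were 8.69 RPM in naive cells, 8.30 in Th1 and 31.3 in Th2 cells at rest, 16.1 in Th1, 35.2 in Th2 and 29.0 in Th17 cells after stimulation, and 7.93 in the input. The 3 highest libraries did not differ from each other beyond counting error, nor did the 2 lowest, and stimulated Th1 lay between the 2 sets with intervals that left out 1 against its neighbours on both sides. Resting Th2 was called higher than naive at 3.61 (2.03 to 6.66) and higher than resting Th1 at 3.78 (2.05 to 7.33). Division by the bin median took the ratio to naive to 2.33, under 3-fold, while that of resting Th1 to resting Th2 went from 0.265 to 0.298 and stayed called. Stimulated Th2 was higher than stimulated Th1 at 2.19 (1.62 to 2.99), under the 3-fold rule. Stimulation left the Th2 level at 1.12 (0.79 to 1.62) of its resting value on the RPM scale and at 0.857 after division by the bin median. In Th1 the ratio was 1.94 (1.09 to 3.67), and 1.20 after that division.

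The start of Il21 showed nearly the same order. The 2 kb centred on it held 1 read in naive cells, 3 in Th1 and 14 in Th2 cells at rest, 20 in Th1, 46 in Th2 and 69 in Th17 cells after stimulation, and 2 in the input. Resting Th2 was called higher than naive at 21.6 (3.29 to 915) and higher than resting Th1 at 6.30 (1.76 to 34.2). Stimulated over resting was 1.03 (0.56 to 2.04) in Th2 and 3.08 (0.91 to 16.2) in Th1, and neither was called. The 1 kb bin that ends at the rounded start was 37131001 to 37132000. It held 1 read in naive cells, 2 in Th1 and 10 in Th2 cells at rest. After stimulation it held 15 in Th1, 34 in Th2 and 57 in Th17 cells, and the input held 2. The 10 kb upstream of Il21 were sparse, with 2 reads in naive cells, 7 in Th1 and 15 in Th2 cells at rest, 20 in Th1, 33 in Th2 and 70 in Th17 cells after stimulation, and 20 in the input. Only naive differed from input there on the RPM scale, at 0.17 (0.019 to 0.70). Between libraries, resting Th2 was called higher than naive in these 10 kb at 11.6 (2.70 to 105). It stood at 2.89 times resting Th1 (1.11 to 8.38), under the 3-fold rule. In the last 18 kb of the locus resting Th2 was also called higher than naive on the RPM scale, at 3.65 (1.75 to 8.19). Naive itself stood below input there on that scale, at 0.49 (0.23 to 0.99). Division by the bin median takes the ratio under 3-fold, which ends the call.

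Because the library total cancels when 2 stretches of the same library are compared, the Il21 gene was set against the Il2 gene with its 10 kb upstream. In resting cells there were 42 reads over Il21 and 26 on the Il2 side in Th2, and 15 and 32 in Th1. The odds of a read lying over Il21 were 3.41 times as high in Th2 as in Th1 at rest (1.47 to 8.18). In stimulated cells there were 150 and 134 in Th2, and 63 and 166 in Th1, and the odds were 2.94 times higher in Th2 (2.00 to 4.36). These 2 comparisons share no library. Stimulated Th17, with 229 and 243, had odds 2.48 times those of stimulated Th1 (1.74 to 3.56), and 0.84 times those of stimulated Th2 (0.62 to 1.14). Stimulation itself did not move the odds beyond counting error, at 0.81 (0.39 to 1.72) in Th1 and 0.69 (0.39 to 1.23) in Th2. The balance between the 2 genes thus differed beyond counting error between the Th1 and Th2 libraries, both at rest and after stimulation. A difference between the states was not detectable at this depth. The stretches were chosen after the data were seen, and the odds use the same reads as the levels above, so they are no separate support for them.

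In the 87 kb between the genes, beyond the 10 kb next to Il2, stimulated Th17 cells had the highest level. The stretch held 129 reads in naive cells, 143 in Th1 and 122 in Th2 cells at rest, 542 in Th1, 503 in Th2 and 1630 in Th17 cells after stimulation, and 218 in the input. Its levels were 62.3 RPM in naive cells, 79.1 in Th1 and 91.0 in Th2 cells at rest, 138 in Th1, 118 in Th2 and 207 in Th17 cells after stimulation, and 61.7 in the input. Stimulated Th17 was 3.35 times input (2.90 to 3.87), 1.49 times stimulated Th1 (1.35 to 1.65) and 1.75 times stimulated Th2 (1.58 to 1.94), the last 2 under the 3-fold rule between libraries. After division by the bin medians the last 2 ratios were 1.20 and 1.39. Against the Il2 gene and its 10 kb upstream in the same library, the odds of a read lying in the stretch were higher in Th17. They were 2.05 times those of stimulated Th1 (1.64 to 2.57) and 1.79 times those of stimulated Th2 (1.40 to 2.27). In those 10 kb Th17 itself stood below stimulated Th1, at 0.67 (0.53 to 0.86). Against the 39 kb below Il2 the odds were 1.52 times those of stimulated Th1 (1.02 to 2.24) and 2.35 times those of stimulated Th2 (1.64 to 3.34). The stretch is 48.3% of the locus and held 65.1% of the locus reads of stimulated Th17 (63.2 to 67.0), 60.7% of stimulated Th1 (57.4 to 63.9) and 52.0% of stimulated Th2 (48.8 to 55.2). The shares were 61.4% in naive (54.5 to 68.1), 61.1% in resting Th1 (54.5 to 67.4), 48.2% in resting Th2 (41.9 to 54.6) and 54.8% in input (49.7 to 59.7), so the Th17 share stood above input but not clear of naive or resting Th1. On activation its RPM was 1.75 times higher in Th1 (1.45 to 2.12) and 1.30 times higher in Th2 (1.06 to 1.59), but 1.08 and 0.990 after division by the bin medians. A high Th17 level was not limited to the stretch between the genes. In the last 18 kb of the locus, above Il21, stimulated Th17 was also highest, at 30.9 RPM and 2.87 times input (2.04 to 4.16). There it was 2.09 times stimulated Th1 (1.56 to 2.83) and 1.57 times stimulated Th2 (1.22 to 2.04), both under the 3-fold rule.

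Tiles of 10 kb placed these differences. The only tile in which stimulated Th17 was called against stimulated Th1 was 37110001 to 37120000, just downstream of Il21, with 202 reads against 29 and a ratio of 3.46 (2.34 to 5.29). It was 1 of 18 tiles tested, against 2.18% of tiles called higher genome-wide. Against stimulated Th2, Th17 was called higher in 0 of 18 tiles, against 2.16%. The tile 37110001 to 37120000 stood at 25.6 RPM in Th17 and 12.2 in stimulated Th2. Resting Th2 was called higher than naive in 3 of 17 tiles, against 3.28%, and these ran without a gap but for 1 tile from 37110001 to 37150000. Resting Th1 was called lower than resting Th2 in 4 of 16 tiles, against 2.21%, namely 37030001 to 37040000 and the 3 consecutive tiles from 37120001 to 37150000 over and above Il21. Stimulated Th1 was called higher than resting Th1 in 3 of 18 tiles, against 3.13%, among them 37030001 to 37040000 with 53 reads against 5. The tile size was chosen after the data were seen.

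**Figure D3:**
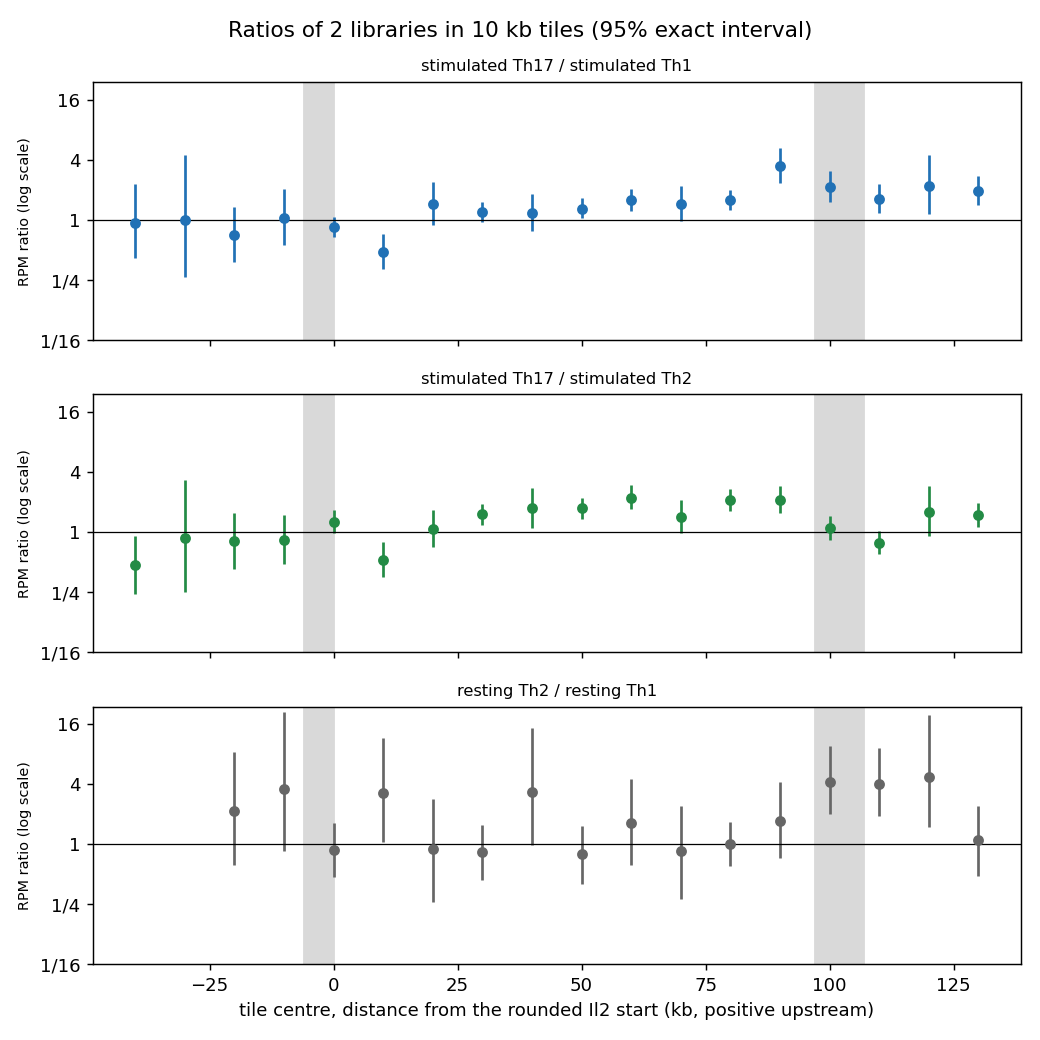
Ratio of RPM (vertical axis, log scale) in 10 kb tiles against tile centre in kb from the rounded Il2 start, with 95% exact intervals and the 2 gene bodies shaded. Tiles with under 10 reads in the pair are not drawn. The ratio of stimulated Th17 to stimulated Th1 is highest, 3.46, in the tile below Il21, and resting Th2 lies above resting Th1 in 3 tiles in a row at Il21.

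At equal depth, with every BRG1 library thinned to 1340208 reads, few windows of the locus were called over input. None of the 900 was called in naive or resting Th1, where 0.0255% and 0.0603% of windows were called genome-wide. In resting Th2 there were 2, against 0.0735% genome-wide, and in stimulated Th1 1, against 0.105%. Stimulated Th2 had 4, against 0.0952%, and stimulated Th17 had 6, against 0.0504%. With all distinct reads there were 1 in naive cells (0.0462% genome-wide), 1 in Th1 (0.0827%) and 2 in Th2 (0.0735%) at rest, and, after stimulation, 16 in Th1 (0.332%), 14 in Th2 (0.341%) and 60 in Th17 (0.499%). Depth differs 5.89-fold between the smallest and the largest library, so calls with all reads cannot be told apart from depth.

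The equal-depth calls were joined within a library over gaps of 1 window and merged between libraries where they shared a window, which gave 11 sites, 9 of them called in 1 library and 2 in 2. A site called in 1 library of a pair and not in the other was chosen partly for that difference. Ratios between such libraries are therefore given only among the results flagged for a closer look, and their reads are a description. The sites fell at both gene starts, 2.5 kb above Il2, in 4 places between the genes, 1.7 kb inside Il21 and 26.7 kb above Il21. The highest by mean RPM over the 6 BRG1 libraries, not divided by length, was 26.4 kb upstream of Il2, at 37051201 to 37051600. It spans 0.4 kb where each other site spans 0.2 kb, so its rank owes in part to its width. It held 3 reads in naive cells, 10 in Th1 and 3 in Th2 cells at rest, 34 in Th1, 26 in Th2 and 45 in Th17 cells after stimulation, and 2 in the input, and no pair of libraries was called there. The site 47.3 kb upstream of Il2, at 37072201, held 3 reads in naive cells, 3 in Th1 and 6 in Th2 cells at rest, 19 in Th1, 16 in Th2 and 8 in Th17 cells after stimulation, and 1 in the input. Here Th17 was called lower than stimulated Th1, at 0.21 (0.079 to 0.50), and lower than stimulated Th2, at 0.27 (0.10 to 0.67). Only 200 bp further on, at 37072601, a site called in Th17, there were 15 reads in Th17, 6 in Th1 and 3 in Th2 after stimulation, 1 in naive and 0 in both resting libraries and in input. In RPM these were 1.90 in Th17, 1.53 in Th1 and 0.704 in Th2, and no pair was called. The 1 kb bin that takes in both, 37072001 to 37073000, was the highest of the locus by mean RPM, with 5 reads in naive cells, 10 in Th1 and 10 in Th2 cells at rest, 43 in Th1, 35 in Th2 and 64 in Th17 cells after stimulation, and 4 in the input. At that width stimulated Th2 and Th17 stood at 8.21 and 8.11 RPM and no pair of stimulated libraries was called, and ends moved by 100 bp in place of 75 left no call at 37072201 against either library.

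The site that ends at the rounded Il21 start, 37131801 to 37132000, was called in stimulated Th2 and Th17. Starts are given to the kb only, so a site of 200 bp is not placed on a start itself. It held 0 reads in naive cells, 1 in Th1 and 2 in Th2 cells at rest, 2 in Th1, 18 in Th2 and 23 in Th17 cells after stimulation, and 0 in the input. In the 2 kb at the start, which were not chosen by calls, stimulated Th1 stood at 0.47 of stimulated Th2 (0.27 to 0.82) and Th17 at 1.71 times stimulated Th1 (1.03 to 2.98), both under the 3-fold rule. The site 1.7 kb inside Il21, at 37130201, was called in stimulated Th2, with 29 reads against 10 in stimulated Th1, 7 in stimulated Th17, 3 in resting Th2, 2 in resting Th1, 0 in naive and 5 in input. Over the whole Il21 gene Th17 stood at 0.82 of stimulated Th2 (0.67 to 1.02). At 37158601, 26.7 kb above Il21 on the side of Cetn4 and Bbs12, the site was likewise called in stimulated Th2, which held 22 reads, against 8 in stimulated Th1, 7 in stimulated Th17, 5 in resting Th2, 4 in resting Th1, 3 in naive and 1 in input. In the 1 kb bin around it stimulated Th2 and Th17 stood at 8.92 and 7.86 RPM.

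The remaining sites were weaker or alike between libraries. At the rounded Il2 start lay the site 37024801 to 37025000. It held 1 read in naive cells and, at rest, 4 in Th1 and 5 in Th2. After stimulation there were 8 in Th1, 13 in Th2 and 22 in Th17, with 1 in the input, and no pair was called. At 37104401, 27.5 kb downstream of the Il21 start, there were 0 in naive cells, 4 in Th1 and 3 in Th2 cells at rest, 17 in Th1, 11 in Th2 and 27 in Th17 cells after stimulation, and 1 in the input, again without a call. At 37052001, next to the highest site and called in Th17, Th17 held 17 reads, with 1 in stimulated Th2, 6 in stimulated Th1, 3 in resting Th1, 1 in resting Th2 and 0 in naive and input. The lowest site by mean RPM, at 37100401, held 12 reads in Th17 and at most 2 in any other library.

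**Figure D4:**
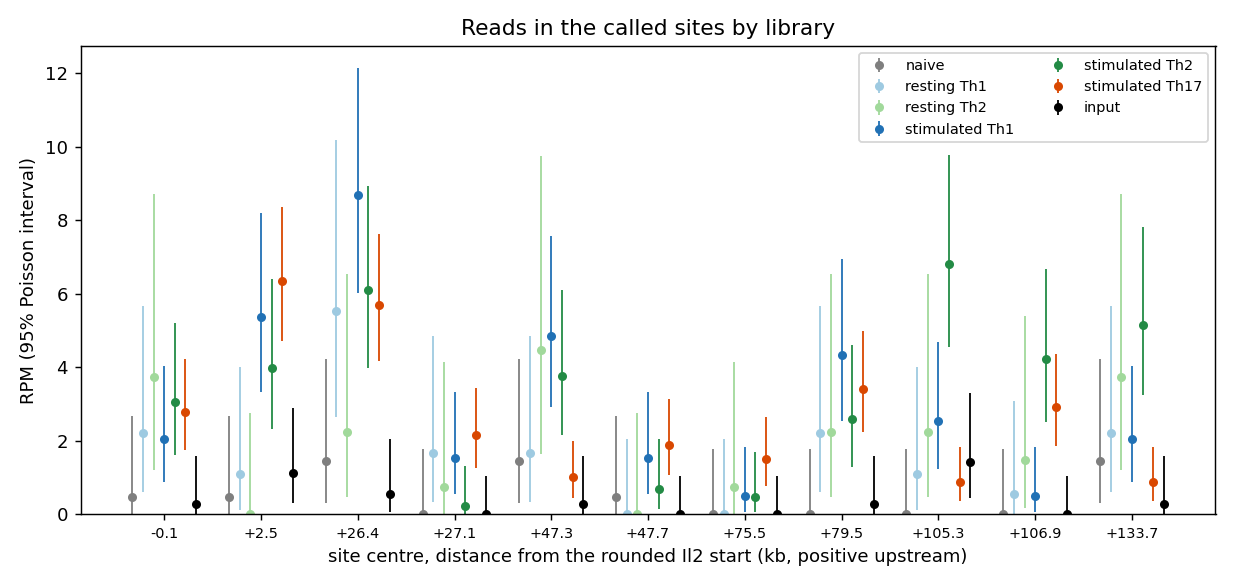
Level in RPM (vertical axis) at the 11 called sites, ordered by distance of the site centre from the rounded Il2 start in kb, 1 point per library with its 95% Poisson interval. The 3 stimulated libraries lie together at 26.4 kb, stimulated Th2 stands above stimulated Th17 at 105.3 and 133.7 kb, and stimulated Th2 and Th17 stand above stimulated Th1 at 106.9 kb. The sites at 105.3 and 133.7 kb were called only in stimulated Th2, and that at 106.9 kb only in stimulated Th2 and Th17. The order at these sites was thus partly fixed by how they were chosen.

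Pair calls at sites are counted beside those at all sites of the genome, which were chosen in the same way. Of the 9 calls at sites of the locus, 5 set a library in which the site was called above one in which it was not, and 1 of these 5, at 37130201, was the only call left at equal depth. Stimulated Th1 was called higher than resting Th1 at 1 of 7 tested sites, where 24.1% of tested sites were called genome-wide, and stimulated Th2 higher than resting Th2 at 1 of 8, against 14.3%. Stimulated Th1 was called lower than stimulated Th2 at 1 of 8, against 3.54%. Stimulated Th17 was called higher than stimulated Th1 at 1 of 11 and lower at 1, against 3.43% and 16.6%, and higher than stimulated Th2 at 1 of 11 and lower at 3, against 3.42% and 17.2%. Between naive and the resting libraries, and between the resting libraries, no more than 1 site held 10 reads, and none was called.

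In 1 kb bins the Th17 comparisons gave the most calls. Stimulated Th17 was higher than stimulated Th1 in 16 of 104 tested bins and lower in 3, against 6.96% and 3.14% genome-wide. It was higher than stimulated Th2 in 21 of 100 and lower in 2, against 7.11% and 4.41%. At equal depth these counts of higher bins were 3 and 4, and after division by the bin medians 8 and 11. The genome-wide shares under these settings are not given, so these counts are not set against the genome. Stimulated Th1 was higher than resting Th1 in 5 of 33 bins, near the 16.7% of the genome, and 3 of those 5 had no resting read. Stimulated Th2 was higher than resting Th2 in 1 of 31, against 8.29%. Stimulated Th1 was higher than stimulated Th2 in 2 of 50 bins and lower in 3, against 2.02% and 4.04%. Resting Th1 was higher than naive in 1 of 6 (37024001 to 37025000, with 12 reads against 2), against 10.0%, and resting Th2 was higher than naive in 1 of 6 (37131001 to 37132000, with 10 against 1), against 15.9%. Resting Th1 was lower than resting Th2 in 1 of 7, the same Il21 bin, against 5.05%. At the Il2 bin resting Th2 held 7 reads, which left its pair with naive short of 10, and the Th1 call there was lost at equal depth. Nothing is read from these single calls among so few bins.

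Among the 5 bins with the highest mean RPM, the one 27.5 kb downstream of the Il21 start, 37104001 to 37105000, was the only one with more than 5 reads in naive. It held 11 reads in naive cells, 10 in Th1 and 7 in Th2 cells at rest, 25 in Th1, 20 in Th2 and 68 in Th17 cells after stimulation, and 3 in the input. Its levels were 5.31 RPM in naive cells, 5.53 in Th1 and 5.22 in Th2 cells at rest, 6.38 in Th1, 4.69 in Th2 and 8.62 in Th17 cells after stimulation, and 0.849 in the input, so the first 5 lay close together. The bin 37051001 to 37052000 stood at 1.93 RPM in naive cells, at 6.08 in Th1 and 5.97 in Th2 at rest, and at 11.7 in Th1, 8.68 in Th2 and 7.86 in Th17 after stimulation. The bin 37158001 to 37159000 held 1.45 RPM in naive cells, 5.53 in Th1 and 5.97 in Th2 cells at rest, 6.13 in Th1, 8.92 in Th2 and 7.86 in Th17 cells after stimulation.

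The pattern of each gene start over the 6 BRG1 libraries was matched to 20907 bins of 1 kb with at least 100 reads, as log2(RPM + 0.5). Outside the locus, the bins most like the 2 kb at Il2 were on chromosome 5 at 107591001 (Pearson's r 0.9997), chromosome 10 at 44100001 (0.9986) and chromosome 15 at 73562001 (0.9981). Those most like Il21 were on chromosome 9 at 108057001 (0.9963), chromosome 15 at 96107001 (0.9962) and chromosome 16 at 23984001 (0.9945). An r over 0.95 was reached by 489 bins for Il2 and 231 for Il21. With 6 libraries that also share their depths, these values only describe the pattern.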

How the data were processed

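The files the authors deposited list every aligned read of 7 libraries, on mm9 per the submitters' processing notes, with aligner and filters not given in the sources used here. A deposited score of 0 stands on every line and was not used. Repeats of a start and strand were counted once, reads on chromosome Y were dropped, and 5′ ends were shifted by 75 bp towards the middle of the fragment. Fragments were size-selected at 250 to 300 bases after 18 PCR cycles, so distinct positions are not independent molecules. Windows of 200 bp were called at a Poisson tail of 1e-05 against the larger of the genome mean and scaled input in 1, 5 and 10 kb, each BRG1 library thinned to 1340208 reads, joined over 1 window within a library and merged between libraries where they shared a window. RPM ratios of 8 pairs carry conditional exact 95% intervals. Calls were tested on simulated data. The rule named the 10 sites and 5 bins with the highest mean RPM, plus comparisons with a single called bin; sites and bins outside it were named after their values were seen. The locus, motifs and lists were chosen with earlier results of these data known. Tiles, comparisons of segments within a library and the 250-base promoter length were chosen after seeing the data. Alternatives changed repeats, end shift, depth, thresholds and scale. Pathway genes outside the locus were not analysed here because no mm9 annotation was used. Python 3.11.15, NumPy 2.4.6, SciPy 1.17.1 and pandas 2.3.3 were used.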

Additional observations from a re-analysis of the deposited data

Results flagged for a closer look

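At 6 of the sites and segments, and in 7 of the 18 tiles of 10 kb, the RPM ratio of stimulated to resting cells pointed one way in Th1 and the other way in Th2. With 1 library per state the difference was not tested, and most of the counts are small. At the site 47.3 kb upstream of Il2 (37072201) the ratio was 2.92 in Th1 and 0.839 in Th2, on 3 and 19 reads in Th1 and 6 and 16 in Th2. At the site of the Il21 start (37131801) it was 0.923 in Th1, on 1 and 2 reads, and 2.83 in Th2, on 2 and 18. At the site 26.7 kb above Il21 (37158601) it was 0.923 in Th1 and 1.38 in Th2. The site at 37072201 was called in resting and not in stimulated Th2, and those at 37131801 and 37158601 in stimulated and not in resting Th2. The direction of the Th2 ratio at these sites was thus partly fixed by how they were chosen, and no difference between Th1 and Th2 is read from it. At 37100401 stimulated Th1 had 2 reads and resting Th1 0, while the Th2 ratio was 0.629 on 2 and 1 reads. Over the 39 kb below Il2, where no library stood clear of input, the ratios were 1.07 and 0.901. Over the 10 kb upstream of Il21 they were 1.32 in Th1 and 0.692 in Th2, and both intervals included 1. The tiles, by first base with the Th1 ratio before the Th2 ratio, were 36980001 (0.769 and 2.31), 37000001 (1.75 and 0.708), 37010001 (2.46 and 0.865), 37060001 (4.04, a call, and 0.818), 37100001 (1.15 and 0.870), 37120001 (1.80 and 0.842) and 37140001 (1.39 and 0.404, an interval that leaves out 1).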

How the results depend on the processing

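No paired analysis was possible because each group has 1 library, and leaving out a library leaves a group empty. The odds of Il21 against the Il2 side kept their direction: over the alternatives run (all deposited reads, ends moved 0 or 100 bp, equal depth) Th1 over Th2 stayed between 0.177 and 0.294 at rest and between 0.297 and 0.340 after stimulation. Counts of windows, sites and bins moved under most alternatives, and equal depth left 1 of the 9 site calls. Depth limits all of them, since 741 naive windows and 330 Th17 windows of the 900 held no read. For values below, the cause was not tested unless the alternative itself uses fewer reads. Counts of calls below stand without the number tested or the genome-wide share of their setting, so they are not set against the genome.

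With all deposited reads kept, called windows numbered 4 in Th1 and 9 in Th2 at rest, and 10 in Th1, 10 in Th2 and 18 in Th17 after stimulation. Sites called higher were then 5 for resting Th1 over naive, 3 for resting Th2 over naive, 2 for stimulated over resting Th1, 2 for stimulated over resting Th2 (and 1 lower), 6 for Th17 over Th1 and 5 for Th17 over Th2, with 3 lower for stimulated Th1 over Th2. Bins were 3 higher and 1 lower for resting Th1 over naive, 6 higher for resting Th2 over naive, 2 lower for resting Th1 over resting Th2, 8 higher for Th1 activation, 8 higher and 1 lower for Th2 activation and 6 lower for stimulated Th1 over Th2. Tiles were 2 higher for resting Th1 over naive and 1 lower for Th2 activation.

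With ends moved 0 bp, called windows were 2 in resting Th1, 1 in resting Th2 and 3 in Th17. Sites were 1 higher for resting Th1 over naive, 0 higher and 1 lower for Th1 activation, 2 lower for stimulated Th1 over Th2, 2 higher and 0 lower for Th17 over Th1, and 2 higher and 1 lower for Th17 over Th2. Bins were 2 higher for resting Th2 over naive, 2 lower for resting Th1 over resting Th2 and 1 higher for stimulated Th1 over Th2. With ends moved 100 bp, resting Th2 had 0 windows, sites were 0 lower for Th17 over Th1 and 1 lower for Th17 over Th2, and bins were 1 lower for Th17 over Th2.

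Calling on all distinct reads gave 1 window in naive, 1 in resting Th1, and 16 in Th1, 14 in Th2 and 60 in Th17 after stimulation. A tail of 1e-07 left 0 in resting Th2, 1 in stimulated Th2 and 2 in Th17, and another thinning seed gave 2 in stimulated Th1. Sites called on all distinct reads, added after seeing the data, gave 44 sites, with 2 higher for Th1 activation, 2 for Th2 activation, 0 lower for stimulated Th1 over Th2, 7 higher for Th17 over Th1 and 12 for Th17 over Th2.

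Scaled to reads in 10 kb bins without a called region, the locus over input was 1.36 in Th1 and 2.11 in Th2 at rest. After stimulation it was 2.83 in Th1, 2.74 in Th2 and 3.64 in Th17. For resting Th1 this scale also lifts the whole interval above 1, so its overlap with 1 holds on the RPM scale only. Divided by the median ratio (that of 1 kb bins for stretches of the locus), 4 ratios turned. The whole locus went to 0.929 for resting Th1 over naive and 0.917 for Th2 activation. The stretch between the genes went to 0.946 for resting Th2 over naive and 0.990 for Th2 activation. Between the genes the others became 0.924 for resting Th1 over naive, 1.08 for Th1 activation, 1.20 for Th17 over Th1 and 1.39 for Th17 over Th2, and Il21 became 0.654 for Th17 over Th2. Sites were then 0 higher for Th1 activation, 2 higher and 0 lower for Th17 over Th1 and 3 higher for Th17 over Th2. Bins were 1 higher for Th1 activation, 0 for Th2 activation, 8 for Th17 over Th1 and 11 for Th17 over Th2.

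At 2-fold, stimulated Th1 over Th2 had 3 sites, 5 bins and 1 tile lower, Th2 activation had 1 tile lower, and Th17 had 3 tiles higher and 1 lower over Th1 and the same counts, 3 and 1, over Th2. With at least 20 reads, sites were 0 higher for Th2 activation and 0 higher for Th17 over Th2. Bins moved by 0.5 kb gave 2 higher for resting Th2 over naive and 1 higher for stimulated Th1 over Th2.

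At equal depth, sites were 0 higher for Th1 activation and for Th2 activation, 0 lower for stimulated Th1 over Th2, 0 higher and 0 lower for Th17 over Th1 and 1 lower for Th17 over Th2. Bins were 0 higher for resting Th1 over naive and for both activations, 0 higher and 1 lower for stimulated Th1 over Th2, 3 higher and 0 lower for Th17 over Th1 and 4 higher and 0 lower for Th17 over Th2, and tiles were 2 higher for Th17 over Th1. The 10 kb upstream of Il2 then stood at 1.0 for Th17 over Th1 and 1.37 for Th17 over Th2, Il21 at 2.56 for Th17 over Th1, and the odds between the genes against below Il2 at 5.11 for Th17 over Th2.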
